A study of Homo sapiens with 4 samples.

Results

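The histone genes are described here through their ATAC-seq peaks in SETD8-knockout and control Kasumi-1 cells. Peaks were taken as histone peaks where the authors' first deposited table named them for a gene symbol of the H1, H2A, H2B, H3 or H4 series. The rule found 66 of the 20556 peaks of that table, under 55 symbols. Of these, 50 peaks under 41 symbols lay on chromosome 6 between 25991855 and 27893743, the main histone gene cluster, and 16 peaks under 14 symbols lay elsewhere, and the groups were read apart. In all, 55 peaks were classed as promoter (within 3 kb of a start site) and gave 50 genes, and 11 peaks were not. One of the symbols, H2AZ1-DT, is the transcript divergent from H2AZ1 and its peak spans the H2AZ1 start, and another, H2BP2, is a pseudogene. Where a gene had several promoter peaks, the one with the highest level in the table concerned stands for it.

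Histone genes encode the linker histone H1 and the core histones H2A, H2B, H3 and H4, around which DNA is wound in nucleosomes. Most of them are intronless, lie in gene clusters and are transcribed when DNA is copied, so that new chromatin can be assembled, whereas variant genes such as H3-3A, H3-3B, H2AZ2 and H1-10 are single genes that are also read outside that phase. The clustered genes often stand head to head, an H2A gene and an H2B gene sharing 1 promoter, and their transcripts end in a stem-loop that SLBP binds. SETD8, now named KMT5A, is the enzyme that places a single methyl group on histone H4.

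The assay was ATAC-seq, where a transposase cuts and tags open DNA, and the cells were Kasumi-1, an established line from acute myeloid leukaemia that carries the RUNX1-RUNX1T1 fusion. The 4 libraries formed 2 groups of 2: sgSETD8, labelled as SETD8 knockout made with CRISPR/Cas9, and sgNT, labelled WT. The sources used here do not give a time after knockout, the guide or whether the cells were a clone or a pool. They also do not say whether libraries of a group came from separate cultures, so the spread behind a p-value may be technical. The values came from 2 deposited tables of the treated against control comparison in hg38. The first named no library, so its mean level, fold change and p-values were used and no level of a single library or group. The second held 13577 peaks and gave the levels of the sgSETD8 and sgNT libraries numbered 2, so it has 1 library per group and no replicate check. Reads in its peaks summed to 2091322 in the knockout and 5342041 in the control. Control values per peak are given as normalised reads, after the authors' scaling, and knockout values as reads. A histone peak of the first table was paired with the second-table peak it overlapped most, and 43 of the 66 found a partner, in 42 distinct peaks. A second-table peak is called a promoter peak where it pairs with a promoter peak of the first.

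As a check of the target, the KMT5A promoter peak on chromosome 12 had 251 knockout and 685 normalised control reads and fold changes of -0.82 and -1.45 in the authors' deposited tables, that is 0.05 and -0.22 relative to the medians of all peaks. The site of the cut is not known, so this peak does not check the labels. Of 8 myeloid progenitor markers, 6 had a promoter peak (CD34, KIT, SPI1, CEBPA, RUNX1 and LYL1, with mean levels of 89.3 to 1113 normalised reads), and MPO and CD33 had none. Of 10 markers of other cell types, 4 had one (CD79A, CD3D, EPCAM and COL1A1, at 44.0 to 184 normalised reads). Their part in the results was not tested.

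Promoter sequences show what the clustered genes share. The 5 below are from RefSeq, build GRCh38.p14, and run from 250 bases before to 50 after the start. They stand for the H4 gene, the shared H2A and H2B promoter and the variant gene with the strongest peaks, and for the genes whose promoter peaks were lowest (H4C11) and highest (H2AC4) in the first table by fold change. The H4C11 window ends before its lowest peak, at 27824337 to 27825051, and overlaps only the weaker H4C11 peak, at 27823759 to 27824044. Capitals mark every match to 7 short motifs, searched on both strands. These were the TATA box as TATAAA, the box bound by the factor NF-Y as CCAAT, the octamer bound by POU2F1 as ATTTGCAT, a box known from H1 promoters as AAACACA, the core of a box known from H4 promoters as GGTCC, and E2F-like sites as TTTGGCGC or as TTTCCCGC. None of the 7 contains another, though matches can overlap, as the TATAAA on both strands of H2AC11 do.
H4C8, chr6:26285485-26285784, minus strand: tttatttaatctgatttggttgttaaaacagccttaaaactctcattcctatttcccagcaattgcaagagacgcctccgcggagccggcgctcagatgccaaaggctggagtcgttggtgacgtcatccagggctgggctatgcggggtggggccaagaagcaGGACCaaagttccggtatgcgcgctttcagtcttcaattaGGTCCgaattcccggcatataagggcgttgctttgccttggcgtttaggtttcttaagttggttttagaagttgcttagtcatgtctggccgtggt
H2AC11, chr6:27132793-27133092, plus strand: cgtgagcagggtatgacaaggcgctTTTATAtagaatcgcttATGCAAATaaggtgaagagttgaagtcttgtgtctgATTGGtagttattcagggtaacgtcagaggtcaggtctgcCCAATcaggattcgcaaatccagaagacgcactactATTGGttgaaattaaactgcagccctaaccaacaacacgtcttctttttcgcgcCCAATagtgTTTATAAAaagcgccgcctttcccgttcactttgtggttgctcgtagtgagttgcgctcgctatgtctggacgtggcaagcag
H3-3B, chr17:75779730-75780029, minus strand: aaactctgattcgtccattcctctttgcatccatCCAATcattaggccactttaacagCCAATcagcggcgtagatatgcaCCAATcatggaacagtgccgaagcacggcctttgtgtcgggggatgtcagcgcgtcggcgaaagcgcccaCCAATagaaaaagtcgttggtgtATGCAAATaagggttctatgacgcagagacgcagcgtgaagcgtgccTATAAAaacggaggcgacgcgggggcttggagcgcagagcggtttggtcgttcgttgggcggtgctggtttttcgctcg
H4C11, chr6:27823842-27824141, plus strand: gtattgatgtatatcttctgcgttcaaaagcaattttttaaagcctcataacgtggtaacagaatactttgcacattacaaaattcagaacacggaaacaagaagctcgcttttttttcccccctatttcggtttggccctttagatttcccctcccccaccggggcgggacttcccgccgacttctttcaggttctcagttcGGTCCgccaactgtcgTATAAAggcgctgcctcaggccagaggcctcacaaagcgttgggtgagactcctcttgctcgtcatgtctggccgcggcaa
H2AC4, chr6:26033569-26033868, minus strand: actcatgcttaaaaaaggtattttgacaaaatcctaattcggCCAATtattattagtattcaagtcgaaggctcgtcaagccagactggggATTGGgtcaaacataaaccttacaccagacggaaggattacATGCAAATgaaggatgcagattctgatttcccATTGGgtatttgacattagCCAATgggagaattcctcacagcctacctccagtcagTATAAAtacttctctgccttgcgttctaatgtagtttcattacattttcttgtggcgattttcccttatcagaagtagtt
The H2AC11 window holds the whole space to the H2BC11 start, 248 bp away. Counted from the H2AC11 start, it has a TATAAA at -31 on the strand of H2AC11 and 2 on the other strand, at -33 and -225, with 4 CCAAT and 1 octamer between the outer ones. On its own strand GGTCC begins at -46 in H4C8 and at -47 in H4C11, and neither window holds CCAAT. The H3-3B window has a TATAAA at -29, 1 octamer and 4 CCAAT, and the H2AC4 window a TATAAA at -30, 1 octamer and 4 CCAAT.

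Of the 55 symbols, 46 matched an entry of the promoter table, and 53 histone genes had a start inside a promoter peak of the set, whether or not the peak carried their name. On chromosome 6, CCAAT stood in all 4 H1, all 10 H2A, all 14 H2B and all 7 H3 promoters examined, but in 2 of the 6 H4 promoters, against 35.7% of all 27305 promoters of this length. The octamer stood in 8 of the 10 H2A and 11 of the 14 H2B promoters, many of which are the same stretch read from either side, in 1 of the 7 H3 promoters and in 0 of the 4 H1 and 6 H4 promoters (1.80% of all promoters). AAACACA was in 4 of 4 H1 promoters (5.76% of all), and GGTCC in 6 of 6 H4 promoters (46.1% of all). TATAAA was in 35 of the 53 (11.95% of all). TTTGGCGC and TTTCCCGC were in 0 of the 53, against 0.659% and 1.66% of all promoters. These are matches of letters, and no factor binding was measured.

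Because peaks are named for 1 gene each, a histone peak often serves more than 1 gene. Among genes with an entry in the promoter table, a shared H2A and H2B start pair lay inside 9 peaks, 8 of them on chromosome 6. The starts of a pair were 194 to 248 bp apart. H2AC12 had no entry, but its peak was annotated at 0 bp from its start and holds the H2BC12 start. The counts of 9 and 8 are therefore minimum counts. Inside the peaks were the starts of 13 symbols that name no peak of the set, among them H2AC6, H2BC7, H2BC8, H2BC12, H2BC14, H2BC15, H2BC17, H2BC21, H2AZ1 and H3C4. A value for H2AC11 is therefore also the value for H2BC11. Histone genes of a class are near copies of each other. The sources used here do not say how reads that fit several copies were handled, so values of single genes are uncertain to that extent.

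By median, both groups of histone promoters had higher levels than promoter peaks at large in the first table. In the second the group elsewhere did and the chromosome 6 group did not. There the median level was 334 normalised reads over the 38 promoters on chromosome 6 and 392 over the 12 elsewhere, against 214 for all promoter peaks. In the second table it was 249 over 26 and 313 over 9, against 272 for all promoter peaks. The strongest peak stood for each histone gene, whereas every promoter peak entered the comparison. Histone peaks of the first table were also wider, with a median of 714 bp against 602 bp for all peaks. However, 55 of the 66 histone peaks were promoter peaks, against 11787 of all 20556 peaks. Widths of promoter peaks alone were not compared. No histone peak passed the authors' test: adjusted p-values were at least 0.731 in the first of the authors' deposited tables and at least 0.578 in the second, and 0% of all peaks passed an adjusted p of 0.05 in either (background 0% and 0%). At an unadjusted p under 0.05 there was 1 of 66 histone peaks in the first table and 0 of 42 in the second, where 1.6% and 0.14% of all peaks had such a value. In bulk ATAC-seq, fewer cells with an open site and less opening per cell cannot be told apart. Nor can either be told apart here from a difference between whole libraries. Reads in peaks of the second table summed to 2091322 in the knockout and 5342041 in the control. The part of this difference in the values below 0 was not tested.

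The deposited fold change of nearly every histone promoter was below 0, as it was for most promoter peaks of both tables. Of the 50 histone promoters of the first table, 47 were below 0 and 3 above it, where 3.28% of promoter peaks were above 0, and in the second all 35 were below 0, where 0.0442% were above. Against this shared shift the tables differed. In the first, the median histone promoter stood at -0.66, above the medians of all peaks (-0.87) and of all promoter peaks (-0.92). In the second it stood at -1.45, below those medians (-1.23 and -1.26). In the first, 11 of 50 (22%) were lower by at least 1 on the log2 scale, against 38.9% of all peaks and 42% of promoter peaks. In the second, 34 of 35 (97.1%) were, against 76.1% of all peaks and 82.8% of promoter peaks.

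Centred on the median of all peaks, 36 of 50 histone promoters lay above and 14 below in the first table, where 44.9% of promoter peaks lay above. In the second, 5 of 35 lay above and 30 below, where 45.8% lay above. Of the 35 genes with a value in both tables, 23 were above the first median and below the second, a combination found at 19.1% of the 9043 promoter peaks paired in the same way. A further 7 were below both, 3 above both (H4C2, H2AC16 and H3C12) and 2 below the first and above the second (H3-3A and H1-10). Which libraries entered the first table is not stated, so the tables may share libraries.

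**Figure D1:**
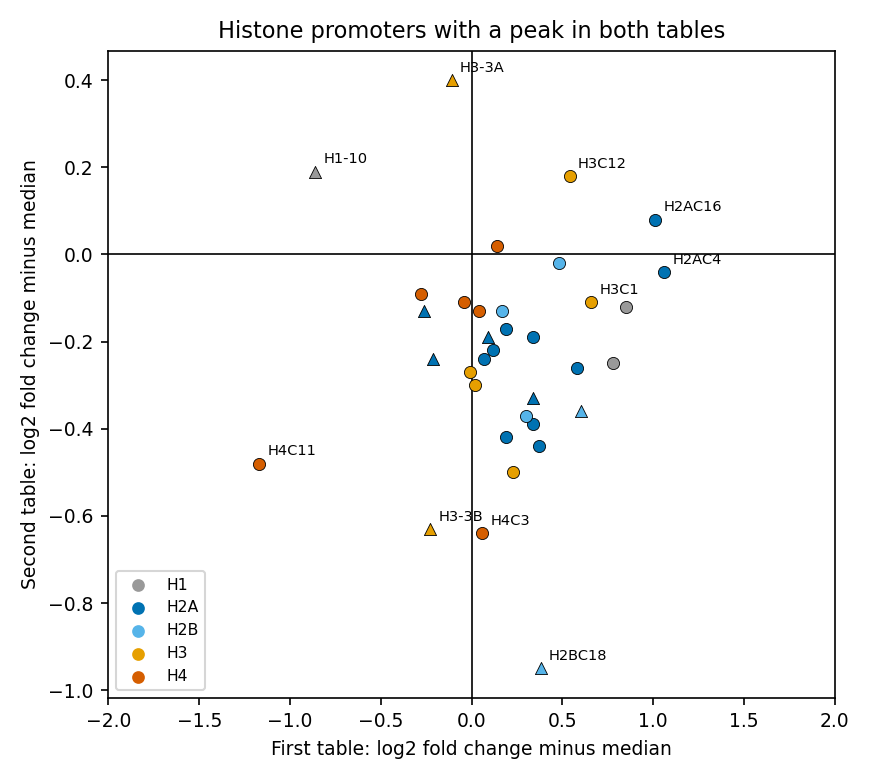
Log2 fold change minus the median of all peaks of its table for the 35 histone promoters with a peak in both tables, first table on the x axis and second on the y axis; circles are the chromosome 6 cluster, triangles genes elsewhere, colours the histone class. Most points, 23 of 35, sit to the right of 0 and below 0, that is above the median of the first table and below that of the second.

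Medians of the chromosome 6 cluster and of the genes elsewhere stood apart in the first table and close together in the second. Over the 38 promoters of the cluster the first-table median was -0.60 (range -2.04 to 0.19) and over the 12 elsewhere -1.01 (range -1.73 to -0.27), a difference of 0.41. Of the cluster's promoters 5 of 38 (13.2%) were lower by at least 1 and 31 of 38 above the median of all peaks; of those elsewhere, 6 of 12 (50%) and 5 of 12 (41.7%). Among all promoter peaks these shares were 42% and 44.9%, which the genes elsewhere lay near. Those elsewhere were a mixed group in the first table. The 3 promoters of the smaller cluster on chromosome 1 had a median of -0.49, with 3 above the median of all peaks. The 7 promoters of variant genes had -1.08, with 1 above it. H2BP2 and H4-16 made up the rest, at -0.27 and -1.04. Location and kind of gene were thus not separated. In the second table the 26 of the cluster had a median of -1.44 (range -1.87 to -1.05) and the 9 elsewhere one of -1.47 (range -2.18 to -0.83), a difference of 0.035. The groups' ranges overlapped widely in both tables. At least 0.5 above the median of all peaks stood 12 of the cluster's 38 promoters and 1 of the 12 elsewhere in the first table, against 10.7% of promoter peaks.

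Peaks of other genes in the same stretch of chromosome 6 had similar values in the first table. There, 18 promoters of other genes had a first-table median of -0.60, the same as the histone promoters of the cluster, while the 639 promoters of the rest of chromosome 6 had -0.94. In the second table the 14 non-histone promoters of the stretch had -1.30 and the 500 of the rest -1.24, both above the -1.44 of the histone promoters. Those neighbours were weaker, with a median level of 7.03 on the log2 scale against 8.39 for the histone promoters of the cluster in the first table. With the trend by level removed, the cluster's histone promoters stood 0.35 above the level trend in the first table and their neighbours 0.29, and at -0.185 and -0.03 in the second. What sets the value of the stretch was not tested.

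**Figure D2:**
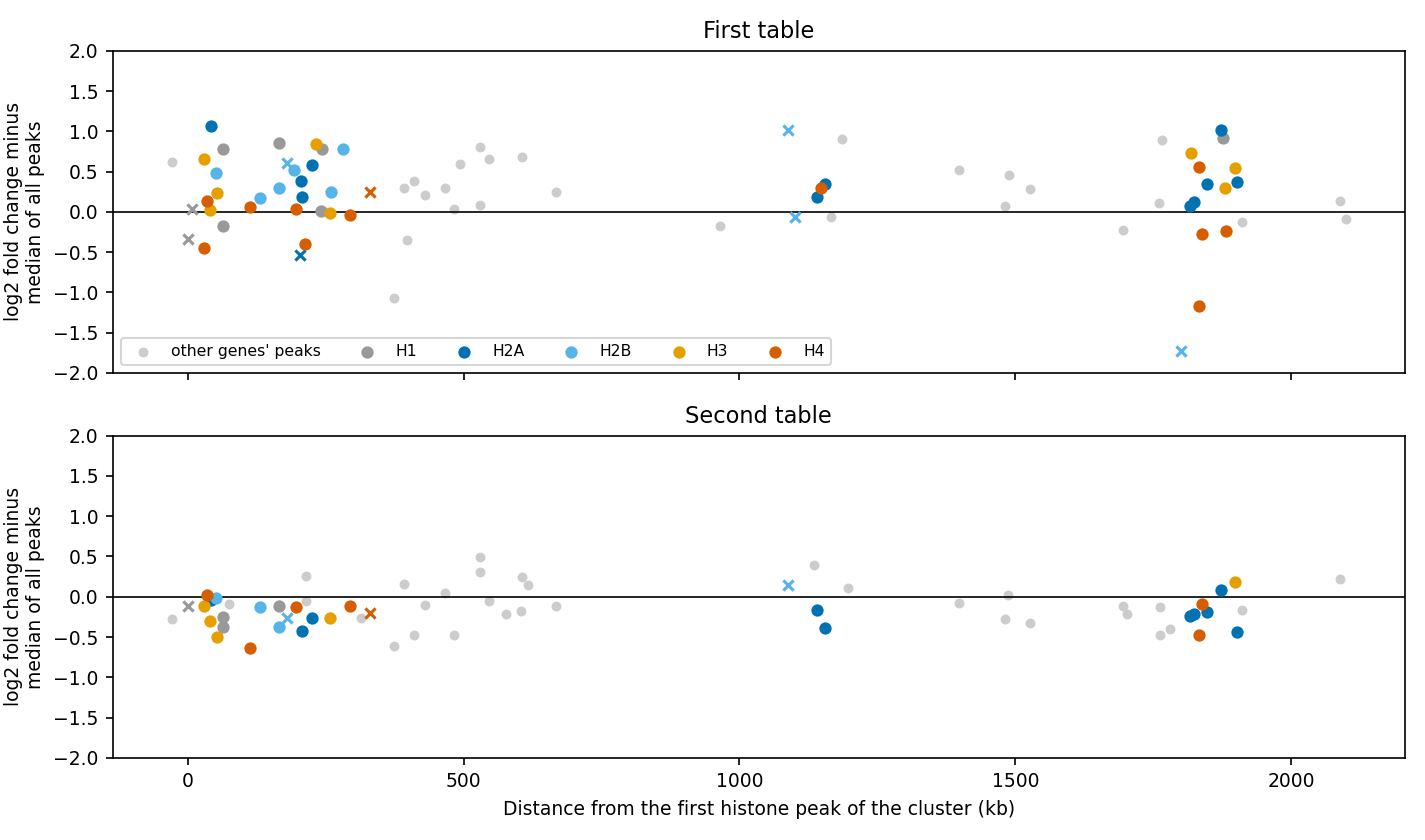
Log2 fold change minus the median of all peaks along the chromosome 6 cluster, first table above and second below; the x axis is the distance from the first histone peak in kb, filled circles are histone promoter peaks coloured by class, crosses other histone peaks and grey points peaks of other genes. Histone promoters lie mostly above 0 in the first table (31 of 38, 1 peak per gene) and below 0 in the second (23 of 26).

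The cluster falls into 3 blocks of histone genes with other genes between them, and the medians of the blocks lay close together. In the first table these were -0.64 over 23 promoters, -0.57 over 3 and -0.56 over 12 along the chromosome. In the second they were -1.43 over 16, -1.51 over 2 and -1.44 over 8. The first block ranged from -1.32 to 0.19 and the last from -2.04 to 0.14 in the first table, so the blocks overlapped.

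H4 genes encode the histone that SETD8 methylates. In the first table H4 promoters of the cluster were lower than those of the other classes: their median was -1.01 over 10 genes (range -2.04 to -0.57), against -0.52 over the 28 promoters of the other classes. Among those 28, the count above the all-peak median was 27 and the count lower by at least 1 was 0. Of the H4 promoters 5 of 10 (50%) were lower by at least 1 and 4 of 10 (40%) above the median of all peaks, shares near the 42% and 44.9% of all promoter peaks. The second table did not show this order, with a median of -1.35 over 6 H4 genes (range -1.87 to -1.21) against -1.46 over 20 others (range -1.73 to -1.05). The sets of genes differ between the tables. Without a partner in the second were H4C1, H4C5, H4C13 and H4C9, which had -1.32, -1.27, -1.11 and -0.57 in the first. Genes are not replicates, so these medians carry no test.

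**Figure D3:**
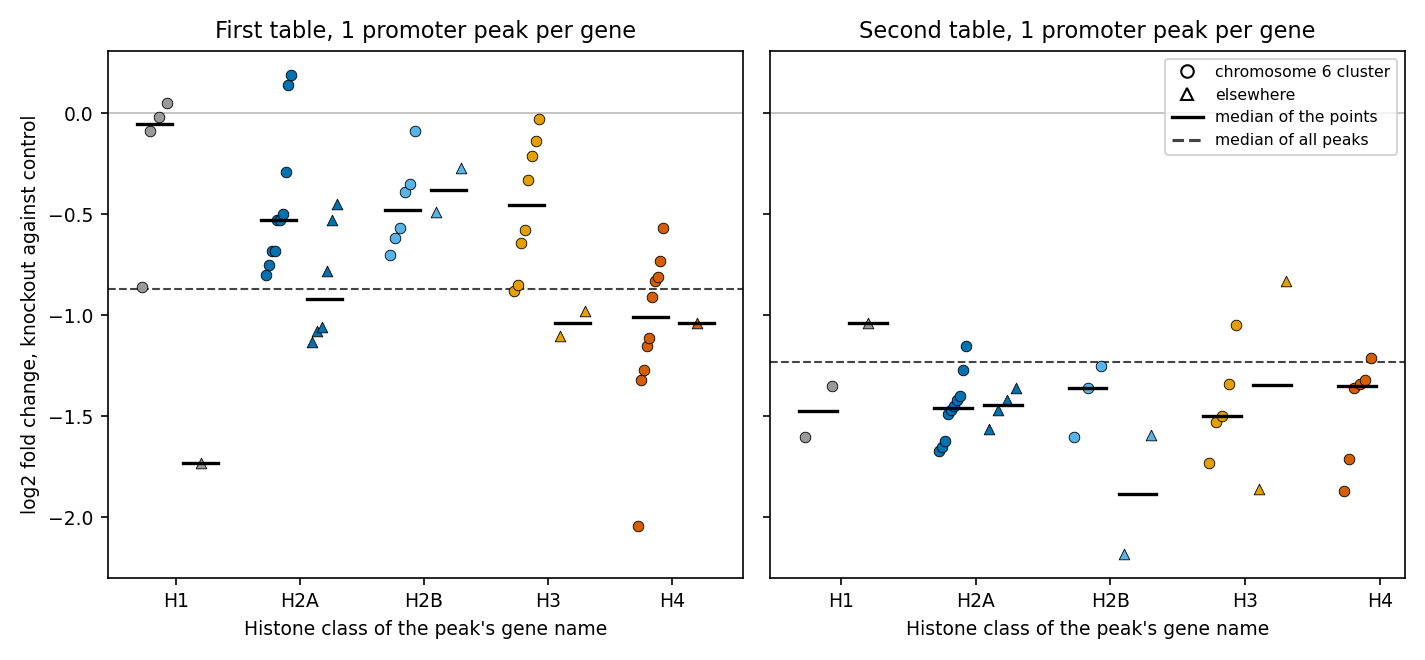
Log2 fold change of each histone promoter by class of its gene name, first table left and second right; circles are the chromosome 6 cluster, triangles genes elsewhere, short bars the median of the points and the dashed line the median of all peaks. H4 circles sit around the dashed line on the left (median -1.01), where 27 of the 28 circles of the other classes lie above it, and every class lies mostly below it on the right.

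Single H4 genes ranged widely. H4C11 had the lowest promoter value of the set, at -2.04 with p = 0.0657 in the first of the authors' deposited tables, from a peak annotated 229 bp downstream of the start. A weaker H4C11 peak just upstream of the start, with 52.7 normalised reads, stood at -0.31 in that deposited table. Both overlap 1 second-table peak with 53 knockout and 174 normalised control reads, a fold change of -1.71 with a 95% counting interval of -2.18 to -1.27 (exact, counting error only, as for all intervals here). H4C1 and H4C5 had -1.32 and -1.27 in the first of the authors' deposited tables, and neither had a partner in the second. H4C12 had -1.15, with 69 knockout and 172 normalised control reads in the second table (-1.32, interval -1.74 to -0.92), and H4C13 had -1.11 with no partner. These 5 genes made up the lower part of the class in the first table.

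The other H4 promoters of the cluster were lower by less than 1 in the first table. H4C8, whose sequence is shown above, had -0.91 in the first of the authors' deposited tables and 215 knockout against 549 normalised control reads in the second, a fold change of -1.34 (interval -1.58 to -1.12). H4C4 had -0.83, and 132 against 338 reads gave -1.36 in the second of the authors' deposited tables. H4C3 had -0.81 and was the lowest H4 promoter of the second table, where 96 knockout and 350 normalised control reads gave -1.87 (interval -2.20 to -1.54), a span that lies wholly below the table's median of -1.23. H4C2 had -0.73 and, from 162 against 375 reads, -1.21. H4C9 was the highest H4 promoter of the first table at -0.57, with no partner. Outside the cluster, H4-16 on chromosome 12 had -1.04 in the first of the authors' deposited tables and no partner.

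H2A and H2B genes supply the dimers at the flanks of the nucleosome. In the first table the median was -0.53 over the 10 promoters named for H2A genes of the cluster and -0.48 over the 6 named for H2B genes, and all 16 were above the median of all peaks. In the second table the medians were -1.46 over 10 and -1.36 over 3, with 1 of the 13 above the median of all peaks. The 8 peaks of the cluster counted above as holding a shared H2A and H2B start, without H2AC12, ranged only from -0.80 to -0.29 in the first table (median -0.68). In the second table they ranged from -1.67 to -1.36 (median -1.46). All 8 were above the median of the first table and below that of the second.

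The H2AC11 peak, which also holds the H2BC11 start, was the strongest histone peak of the first table, with a mean of 1305 normalised reads. It had -0.68 in the first of the authors' deposited tables, and 391 knockout and 1031 normalised control reads in the second gave -1.40 (interval -1.57 to -1.23). H2AC4, highest of the first table at 0.19, had 116 knockout and 280 normalised control reads and -1.27 (interval -1.59 to -0.96) in the second. Relative to the medians of all peaks these are 1.06 and -0.04. H2AC16 was likewise above 0 in the first of the authors' deposited tables (0.14), and 114 against 252 reads gave -1.15 in the second. The lowest H2A promoters of the cluster in the first table were H2AC13 (-0.80) and H2AC14 (-0.75), both shared with an H2B start, with 96 against 267 reads and 114 against 313 reads in the second table (-1.47 and -1.45). In the second table the lowest were H2AC17 (-1.67, from 194 knockout and 617 normalised control reads) and H2AC7 (-1.65, from 167 and 523), which had -0.50 and -0.68 in the first of the authors' deposited tables. The counting intervals of both, -1.91 to -1.44 and -1.90 to -1.40, lie wholly below the median of the second table. H2AC8, H2AC12 and H2AC15 had -0.29, -0.53 and -0.53 in the first of the authors' deposited tables and -1.49, -1.62 and -1.42 in the second, and a weaker H2AC7 promoter peak over the H3C4 start had -0.49 and no partner.

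Among peaks named for H2B genes, H2BC4, whose peak also holds the H2AC6 start, was the strongest, with a mean of 1105 normalised reads in the first table. It had -0.70 in the first of the authors' deposited tables and, from 267 knockout and 685 normalised control reads, -1.36 in the second. H2BC9 (-0.62) was the next lowest in the first table, and H2BC10 (-0.09) and H2BC6 (-0.35) were the highest there. None of these 3 had a promoter partner in the second table. H2BC5 had -0.57 in the first of the authors' deposited tables and -1.60 in the second, from 246 against 739 reads, and H2BC3 -0.39 and -1.25, from 174 against 413 reads.

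Histone H3 pairs with H4 in the core tetramer. Over the 8 H3 promoters of the cluster the first-table median was -0.46 (range -0.88 to -0.03), and over the 5 with a partner the second-table median was -1.5 (range -1.73 to -1.05). H3C2, the strongest, had a mean of 474 normalised reads and -0.85 in the first of the authors' deposited tables, and 147 knockout and 425 normalised control reads gave -1.53 in the second. H3C7 was lowest in the first at -0.88 (-1.5 in the second, from 138 against 388 reads). H3C6 and H3C10 were highest there, at -0.03 and -0.14 in the first of the authors' deposited tables, and had no partner. H3C3 was lowest in the second, where 104 against 345 reads gave -1.73 (interval -2.06 to -1.41), and H3C12 highest, where 150 against 311 gave -1.05 (interval -1.34 to -0.77). In the authors' first deposited table H3C3 had -0.64, H3C12 -0.33, H3C1 -0.21 and H3C11 -0.58. H3C1 had -1.34 in the second, from 102 against 260 reads.

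H1 genes encode the linker histone that binds DNA where it enters and leaves the nucleosome. Their start peaks in the cluster stood near 0 in the first table: H1-5 had 0.05, H1-4 -0.02, H1-2 -0.09 and H1-3 -0.09 in the first of the authors' deposited tables. Both H1-2 and H1-3 had another peak inside the gene that was lower, at -1.04 (567 bp from the start) and -0.86 (731 bp). For H1-3 this inner peak was the stronger, with 164 normalised reads against 68.1 at the start. The value of -0.86 therefore stands for H1-3 where 1 peak per gene was used. In the second table the H1 peaks of the cluster lay below the median of all peaks. The H1-4 peak had 90 knockout and 229 normalised control reads there (-1.35, interval -1.71 to -0.99), and the 2 peaks of H1-2 had 64 against 179 reads at the start (-1.48) and 85 against 258 inside the gene (-1.60). H1-1 had no promoter peak. The 2 peaks named for it, 17830 and 24763 bp from its start, stood at -0.83 and -1.21 in the first of the authors' deposited tables, and the stronger had 199 against 508 reads in the second (-1.34).

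**Figure D4:**
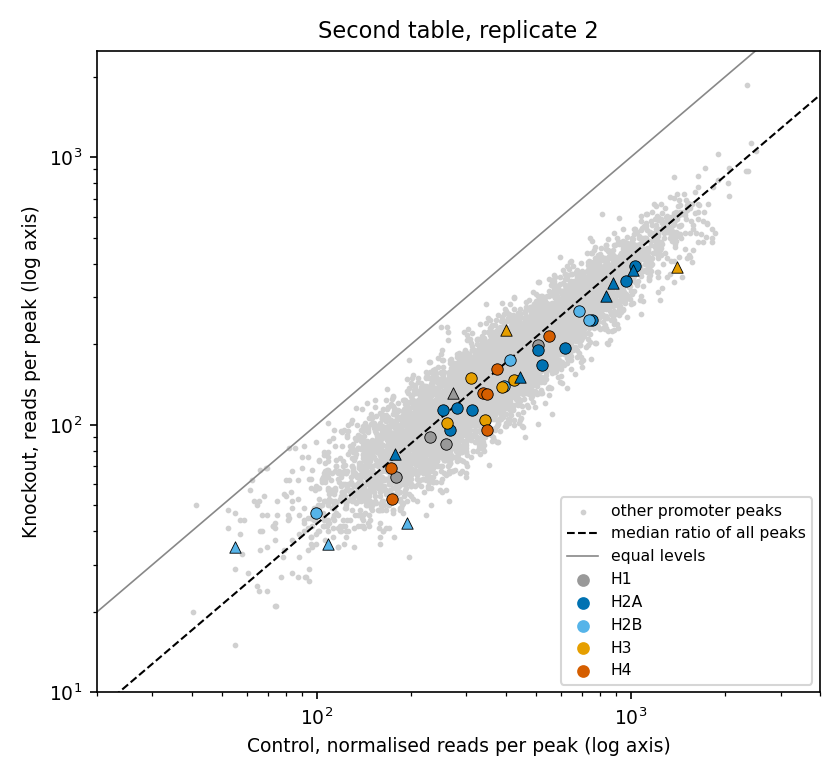
Knockout reads against normalised control reads per peak in the second table, both on log axes; grey points are other promoter peaks, coloured points the 42 histone peaks (circles in the chromosome 6 cluster, triangles elsewhere), the dashed line the median ratio of all peaks and the solid line equal levels. All 42 histone peaks lie below the line of equal levels and most lie below the dashed line, from 35 to 391 knockout reads.

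Counting error bears on these values. The 42 histone peaks of the second table had 35 to 391 knockout reads (median 139) and 54.9 to 1409 normalised control reads (median 362). Their 95% counting intervals spanned a median of 0.284 to either side, and all 42 lay below 0, as did the median of all peaks (-1.23). Of the 35 histone promoters, 16 (45.7%) had an interval wholly below the table's median, against 19.2% of promoter peaks, and 1 (H3-3A) had one wholly above it, against 14.4%. The remaining 18 spanned the median and cannot be told from the shared shift even by counting error alone. An interval wholly to 1 side of the median does not show a difference between the groups. It leaves out variation between libraries, and there was 1 library per group.

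Variant genes were spread over several chromosomes. Over their 7 promoters the first-table median was -1.08 (range -1.73 to -0.78), with 5 of 7 lower by at least 1 (42% of promoter peaks) and 1 of 7, H2AX, above the median of all peaks (44.9% of promoter peaks). Over 6 with a partner, the second table gave -1.39 (range -1.86 to -0.83). H1-10 on chromosome 3, a linker histone variant, was the lowest promoter outside the cluster at -1.73 in the first of the authors' deposited tables, but 132 knockout and 272 normalised control reads gave -1.04 (interval -1.35 to -0.75) in the second, above the median. H3-3A on chromosome 1 and H3-3B on chromosome 17 both encode the replacement histone H3.3. They had close values in the first of the authors' deposited tables (-0.98 and -1.10) and lay further apart in the second. There H3-3A had 226 knockout and 402 normalised control reads (-0.83, interval -1.07 to -0.59) and H3-3B 388 and 1409 (-1.86, interval -2.03 to -1.70). Other promoters of the same 5 Mb stretch had medians of -1.21 around H3-3A (27 promoters) and -1.60 around H3-3B (62 promoters) in the second table, so the neighbours of H3-3B were low as well. A weaker H3-3B peak 2604 bp from the start had -0.94 in the first table and no partner.

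Promoters of the H2A variants ranged from -1.13 to -0.78 in the first table and from -1.47 to -1.36 in the second. H2AX on chromosome 11, whose product is phosphorylated at DNA breaks, had -0.78 in the first of the authors' deposited tables and 380 knockout against 1017 normalised control reads in the second (-1.42, interval -1.59 to -1.25). H2AZ2 on chromosome 7, a gene of the variant H2A.Z, had -1.13 and, from 340 against 879 reads, -1.36. The peak over the start of H2AZ1, the other H2A.Z gene, on chromosome 4, had -1.08 and, from 302 against 838 reads, -1.47 (interval -1.66 to -1.28). H2AJ on chromosome 12 had -1.06 in the first of the authors' deposited tables and no partner.

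The smaller cluster on chromosome 1 lay above the median of all peaks in the first table and below it in the second. H2BC18, H2AC20 and H2AC21 had -0.49, -0.53 and -0.45 in the first of the authors' deposited tables. H2BC18 was the lowest histone peak of the second, where 43 knockout and 194 normalised control reads gave -2.18 (interval -2.68 to -1.69). H2AC20, whose peak also holds the H2BC21 start, had 151 against 446 reads and -1.56. Other promoters of the same 5 Mb had medians of -0.77 over 27 in the first table and -1.44 over 25 in the second. The pseudogene H2BP2, also on chromosome 1, had -0.27 and, from 36 against 108 reads, -1.59.

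A histone name was carried by 11 peaks that were not promoters, and they had the widest range in the first table. The lowest of all 66 was a distal peak on chromosome 6 at 27792155 to 27792533, 15398 bp from H2BC13, at -2.60 with p = 0.00504 and an adjusted p of 0.731 in the first of the authors' deposited tables, at a mean of 63.6 normalised reads. It had no partner. Another distal peak, 53597 bp from H2BC11, was above 0 in the first of the authors' deposited tables (0.15) and had 47 against 99.7 reads in the second (-1.09). The second distal peak named for H2BC11 had -0.93, and a peak over the 3' end of H2AC7 -1.40. Peaks far from H2BC6 and H4C8 had -0.26 and -0.62 in the first of the authors' deposited tables and -1.5 and -1.43 in the second. A distal peak of H2AZ2 had -1.43 and -1.18, that of H3-5 on chromosome 12 -0.67 with no partner, and an intronic peak named for H2BS1 on chromosome 21 -0.35 and -0.65, the last from 35 against 54.9 reads (interval -1.30 to -0.03).

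Genes that act on histone supply were read from lists. Of 21 genes for histone gene transcription and mRNA processing, 18 had a promoter peak in each table, with medians of -0.82 and -1.36. In the first, 5 of the 18 (27.8%) were lower by at least 1, against 42% of promoter peaks, and in the second 15 (83.3%), against 82.8%. CASP8AP2, a scaffold of the histone locus body, had -1.10 and -1.44 in the authors' deposited tables. HINFP, which binds H4 promoters, had -0.74 and -1.14, POU2F1, which binds the octamer, -0.90 and -1.30, and LSM11, a subunit of the U7 particle that trims histone transcripts, -0.41 and -1.20. NPAT and SLBP had no promoter peak under their own names. Of 30 histone chaperone and deposition genes, 22 had a promoter peak in the first table (median -1.05) and 21 in the second (median -1.36). Lower by at least 1 were 12 of the 22 (54.5%) and 16 of the 21 (76.2%), against the same 42% and 82.8%. CHAF1A and CHAF1B, subunits of the replication-coupled assembly factor, had -0.89 and -1.25 in the first of the authors' deposited tables and -1.49 and -1.32 in the second. HJURP, which loads the centromeric variant CENPA, had -1.07 and -1.95, and CENPA itself -1.38 and -1.41 in the authors' deposited tables. MACROH2A1 had -1.17 in the first of the authors' deposited tables. The histone promoters of chromosome 6 thus lay above both lists in the first table (-0.60) and below both in the second (-1.44), as medians without a test.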

How the data were processed

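Kasumi-1 ATAC-seq libraries, 2 labelled sgNT and 2 labelled sgSETD8, were grouped by their titles. Tools listed in the submitters' processing notes, in no stated order, are ChIPseeker, Bowtie2, MACS2 2.1.2, cutadapt, SAMtools and deepTools, with hg38 as genome. Settings, read shifting, duplicate removal and library scaling are not stated there. The deposited log2 levels, log2 fold changes, p-values and adjusted p-values are the authors' own. The columns of the second table are named in its header, and those of the first were identified by order and range. Of its columns, 2 that may hold levels of groups or libraries carry no such name and were not used. The tables were scaled separately, so medians were taken within a table.

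Levels of the second table were turned back into reads. All 361 weak knockout values gave whole reads, and all 170 weak control values did after division by 0.9185 (tolerance 0.0055 on the log2 scale). Counting intervals are exact (Clopper-Pearson, 95%) and cover counting error only. Reads for all 4 libraries were not analysed here, so the authors' p-values stand in place of a count test. Peaks were paired by an overlap of at least 1 bp. To remove the trend by level, the median fold change of each of 20 equally filled level bins was subtracted, and regional medians are over other promoters in bins of 5 Mb with at least 10. Intervals, overlaps and trend removal were tested on simulated data. Named genes were all H4 and variant genes, per other class the strongest and the 2 lowest and highest per table, every peak outside promoters and values above 0. Some further members were named after their values were seen. Members, rule and lists were chosen with earlier results of these data known. Alternatives covered centring, level, peak choice, fold size, overlap and p threshold. Python 3.11.15, numpy 2.4.6, pandas 2.3.3, scipy 1.17.1 and matplotlib 3.10.9 were used, and promoters and symbols are from RefSeq, GRCh38.p14.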

Additional observations from a re-analysis of the deposited data

How the results depend on the processing

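Centring and removal of the level trend moved the histone medians by the most among the alternatives run, and centring does so by construction, since it subtracts the median of all peaks. Relative to the median of all peaks the first-table median turned from -0.66 to 0.21, and with the level trend removed to 0.27. The second-table median went from -1.45 to -0.22 and -0.20 under the same steps. Counting every promoter peak, core promoters only, peaks at or above the median level (strong peaks), pairs overlapping by at least 50% of both peaks, or dropping H2AZ1-DT and H2BP2 (chosen after the data were seen) kept the medians within -0.68 to -0.64 and -1.46 to -1.42. The cluster exceeded the genes elsewhere by 0.38 to 0.41 in the first table under all alternatives run. In the second, the difference of 0.035 turned to -0.025 with strong peaks only and to -0.015 without those 2 symbols, so it has no stable sign. Of the 66 first-table peaks, 16 were lower by at least 1, against 38.9% of all peaks. The count was 44 at 0.5, 3 at 1.5, and 2 at 1 after centring. Of the 42 second-table peaks, 40 were lower by at least 1, against 76.1% of all peaks. The count was 15 at 1.5, and 0 at 1 after centring. With strong peaks only it was 26, out of fewer than 42 because weaker peaks were left out. Shares of all peaks were not counted at these other settings, so those counts do not set histone genes apart. Quartiles of all peaks were -1.17 and -0.53 in the first table and -1.43 and -1.01 in the second. No peak passed an adjusted p of 0.05 or 0.1 in either table, and 1 passed an unadjusted p of 0.05. No replicate could be left out, because the libraries of the first table are not named and the second has 1 per group. No paired analysis was possible because the groups share only the replicate number 2 in the labels. Counting intervals of 18 of 35 histone promoters span the median of all peaks in the second table. Variation between libraries could not be measured there for any of the 35.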

Other observations

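A run of 4 second-table peaks on chromosome 1, between 149831916 and 149861704, covers the starts of 6 histone genes that have no peak in the first table: H4C14, H3C14, H2AC18, H2AC19, H3C15 and H4C15. These peaks are 1230 to 2012 bp wide, and both libraries stand at 1 read in each. The table gives 70 peaks such a value in both libraries (0.516% of its peaks). No fold change can be read from them. The cause was not tested.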
